A study of Rattus norvegicus with 18 samples.

Results

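The hearts of 6 male Wistar rat offspring exposed in gestation to cannabidiol (CBD) at 3 mg/kg/day were compared with the hearts of 7 male offspring of the vehicle group, which makes 13 of the 18 samples of the series. The samples were chosen by the group code that opens the name of each deposited column (C3 for the lower dose, V for vehicle). All animals were 3 weeks old, and the source is whole heart, so that fewer cells of a type and less RNA per cell cannot be told apart. No genetic modification is given for any group, and neither the number of dams nor any sharing of litters is stated in the labels. The other 5 samples, from the dose of 30 mg/kg/day (CBD30), entered the fit and are given beside the lower dose for single genes.

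Cannabidiol is a cannabinoid of the cannabis plant that does not intoxicate. It is lipophilic and crosses the placenta, and it is known to act on several receptors and channels rather than on a single one. The rat heart matures after birth. Its cardiomyocytes leave the cell cycle, exchange fetal for adult sarcomere proteins and turn from glucose and lactate to fatty acids for energy. The comparison addresses whether the lower gestational dose left a difference in cardiac gene expression at 3 weeks of age.

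The deposited table names genes by Ensembl rat ID alone, and 0 of its 30560 IDs could be paired with a symbol from the sources used here. The reference gene table holds 47357 rat genes and gives an Ensembl ID for 0 of them. For this reason 52 lists of heart genes, pathways and cell type markers, holding 901 symbols, were not tested. The labelled tissue and sex were likewise not checked against marker genes. The results below describe 4 IDs by their values in every group, and the other genes by expression level and by counts. What the proteins of these 4 IDs do is not stated, because no name was assigned to them.

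The 2 IDs with the smallest p-values in each direction were taken among genes averaging 1 CPM or more (CPM is a gene's count relative to its library's total, here also scaled for library composition by TMM) whose difference kept its sign when each heart was left out. Because p-values of this comparison chose these IDs, the values below describe the genes at the far end of the ranking. None of the 4 passed the edgeR quasi-likelihood test after Benjamini-Hochberg adjustment over all genes.

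ENSRNOG00000018214 had the smallest p-value of the comparison. Its level in the vehicle hearts was 12.2 CPM at the lowest, 15.8 CPM at the median and 17.5 CPM at the highest. In the CBD3 hearts the lowest was 18.98 CPM, the median 23.5 CPM and the highest 27.0 CPM. All 6 CBD3 hearts therefore lay above the highest vehicle heart, the one coded 2.1. The means were 23.2 ± 3.199 CPM (SD, n = 6) in CBD3 and 15.4 ± 1.81 CPM (SD, n = 7) in vehicle hearts, and the log2 fold change was 0.59 ± 0.10 (SE). This is a 1.503-fold difference with a 95% interval of 1.30 to 1.74-fold, an unadjusted p of 1.24e-05 and an edgeR adjusted p of 0.211.

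ENSRNOG00000011518 was the second ID that was higher in CBD3 hearts. Vehicle hearts ranged from 5.19 to 6.80 CPM around a median of 5.79 CPM, and CBD3 hearts from 6.33 to 11.95 CPM around a median of 9.52 CPM. The groups overlapped through a single CBD3 heart, coded 1.2, which at 6.33 CPM lay below the vehicle hearts coded 3.2 and 4.1. The CBD3 hearts were more spread than the vehicle hearts, with 9.22 ± 2.12 CPM (SD, n = 6) against 5.93 ± 0.600 CPM (SD, n = 7). The log2 fold change was 0.64 ± 0.13 (SE), which is 1.55-fold with a 95% interval of 1.29 to 1.88-fold (edgeR adjusted p = 0.504).

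In the other direction, ENSRNOG00000042686 ranged from 7.04 to 13.3 CPM around a median of 10.1 CPM in vehicle hearts and from 5.82 to 7.76 CPM around a median of 6.81 CPM in CBD3 hearts. The overlap came from the vehicle heart coded 3.1, which at 7.04 CPM lay below the CBD3 heart coded 1.1 at 7.76 CPM. The next vehicle heart, coded 3.2, was at 8.71 CPM, above every CBD3 heart. The means were 6.71 ± 0.703 CPM (SD, n = 6) and 10.1 ± 1.99 CPM (SD, n = 7), with a log2 fold change of -0.59 ± 0.13 (SE, 95% interval -0.85 to -0.33; edgeR adjusted p = 0.504).

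ENSRNOG00000066176 ranged from 10.3 to 17.0 CPM around a median of 14.1 CPM in vehicle hearts. In CBD3 hearts it ranged from 7.07 to 11.1 CPM around a median of 9.60 CPM. A single CBD3 heart, coded 2.2, reached into the vehicle range and exceeded the vehicle hearts coded 3.1 and 3.2. The means were 9.29 ± 1.38 CPM (SD, n = 6) and 13.6 ± 2.75 CPM (SD, n = 7). The log2 fold change was -0.55 ± 0.13 (SE, 95% interval -0.82 to -0.28; edgeR adjusted p = 0.504). For this ID and the preceding one, the vehicle heart coded 3.1 was the lowest of its group.

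**Figure D1:**
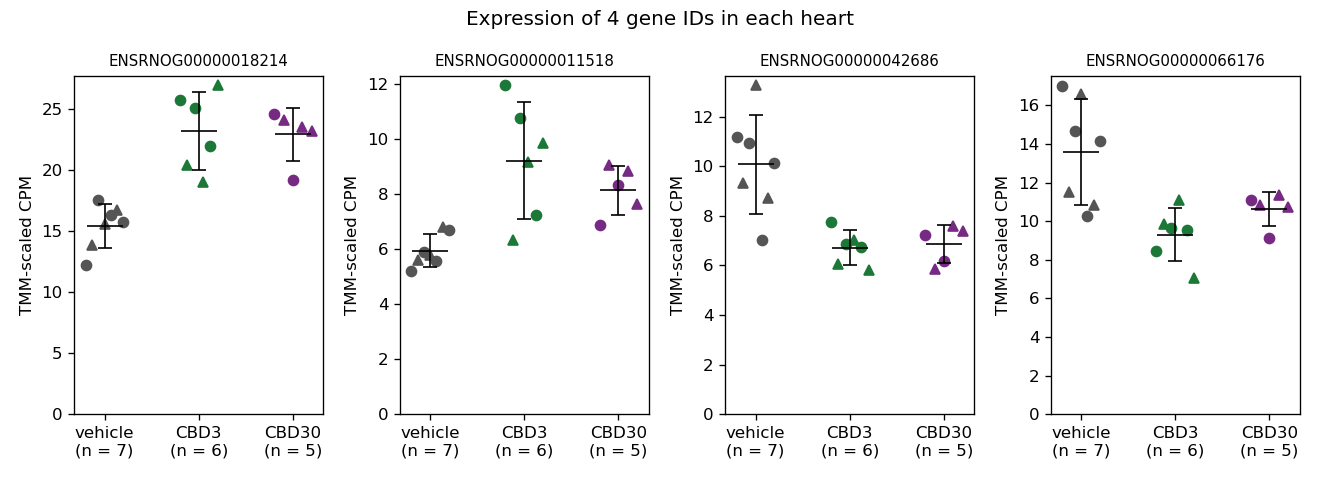
TMM-scaled CPM of 4 Ensembl gene IDs in each heart, by group (circles, column codes ending in 1; triangles, codes ending in 2; bars, mean and SD). All 6 CBD3 hearts lay above the 7 vehicle hearts for ENSRNOG00000018214, from 18.98 CPM upward against 17.5 CPM at most, while the groups overlapped for the other 3 IDs.

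Hearts of the higher dose were measured against the same 7 vehicle samples, so their values are set beside those of the lower dose without comparing the contrasts. ENSRNOG00000018214 was at 22.9 ± 2.15 CPM in CBD30 hearts (SD, n = 5) and ENSRNOG00000011518 at 8.14 ± 0.892 CPM. ENSRNOG00000042686 was at 6.85 ± 0.771 CPM and ENSRNOG00000066176 at 10.6 ± 0.867 CPM in CBD30 hearts. No test was made on these values here.

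The column names carry a code that no label explains, such as 3.1, and the hearts fall into 2 sets by its last digit. The 4 IDs were therefore also measured within each set. Among the codes ending in 1 (4 vehicle and 3 CBD3 hearts), ENSRNOG00000018214 was at 15.5 ± 2.28 CPM in vehicle and 24.3 ± 1.999 CPM in CBD3 hearts (SD). Among those ending in 2 (3 hearts each) it was at 15.4 ± 1.44 and 22.1 ± 4.26 CPM. Its log2 fold change was 0.65 ± 0.15 and 0.52 ± 0.15 (SE) in the sets. That of ENSRNOG00000011518 was 0.78 ± 0.19 and 0.48 ± 0.19, that of ENSRNOG00000042686 was -0.46 ± 0.18 and -0.73 ± 0.20, and that of ENSRNOG00000066176 was -0.60 ± 0.17 and -0.48 ± 0.21. Each ID thus kept its direction within both sets, which the choice of the IDs on all samples favours. Expression itself hardly differed between the sets (median absolute log2 difference 0.0183, with 1 of 17009 genes at an unadjusted p under 0.05 and 0 at an edgeR adjusted p of 0.05). If no gene differed between the sets, about 850 genes would be expected at an unadjusted p under 0.05. The sets were thus more alike than a random split of hearts would make them. Had the counts been adjusted for this digit before deposit, values within a set would also carry that adjustment, and this was not tested. An interaction of CBD3 with the digit was not called for any of the 4 (edgeR adjusted p = 0.658 to 0.861). Across all genes the interaction was called for 0 of 17009 at an adjusted p of 0.05, and 1535 genes (9.02%) had an unadjusted p under 0.05.

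Over the 17009 genes tested with edgeR, 0 passed an adjusted p of 0.05 (0%). At an unadjusted p under 0.05, 662 genes (3.89%) were higher and 856 (5.03%) lower in CBD3 hearts. Over both directions, about 850 genes would be expected at this threshold if no gene differed. The excess of lower genes depended on the scaling and the tool. There were 690 higher and 877 lower with library size alone, but 765 and 744 with relative log expression factors, 862 and 824 with DESeq2 and 922 and 878 with limma voom. Within the codes ending in 1 there were 458 higher and 1791 lower, and within those ending in 2 there were 229 and 357. DESeq2, run on those genes, called 8 of them (0.047%), 5 higher and 3 lower in CBD3 hearts, and limma voom called 0 (0%). ENSRNOG00000018214, ENSRNOG00000011518 and ENSRNOG00000042686 are among the 8 (DESeq2 adjusted p = 0.000528, 0.017 and 0.0217). The 8 genes had means of 0.600 to 67.0 CPM. Those higher in CBD3 had edgeR log2 fold changes of 0.41 to 1.13, and those lower had -1.33 to -0.59.

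These DESeq2 calls depended on single hearts, as the plot of genes counted with each heart left out shows. Without the vehicle heart coded 3.1, DESeq2 called 130 genes, which included all 8. Without the vehicle heart coded 1.1, 2.1 or 2.2, or without the CBD3 heart coded 3.2, it called 1 gene, which was 1 of the 8. The counts without the remaining hearts were 2 to 15. Under edgeR the number of genes at an unadjusted p under 0.05 was 2823 without the vehicle heart coded 3.1, and 962, 929 and 991 without the vehicle hearts coded 1.1 and 2.1 and the CBD3 heart coded 3.2. The adjusted count with edgeR was 0 with each of the 13 hearts left out.

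**Figure D2:**
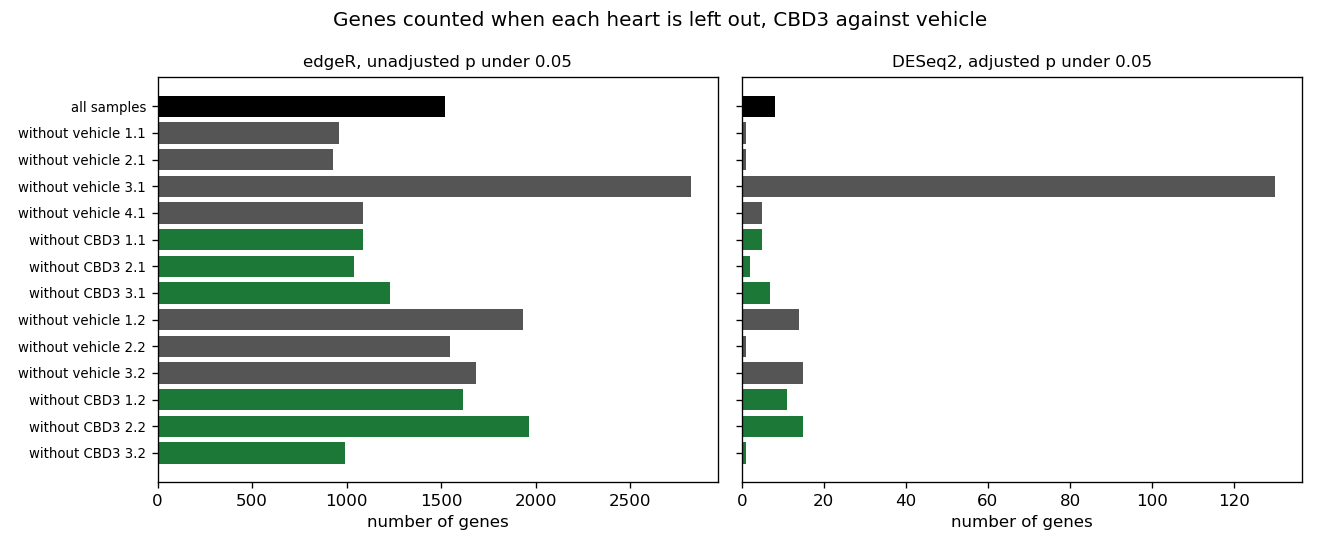
Number of genes at an unadjusted p under 0.05 with edgeR (left) and at an adjusted p under 0.05 with DESeq2 (right) in CBD3 against vehicle hearts, with all samples (black) and without each vehicle (grey) or CBD3 (green) heart. Both counts were highest without the vehicle heart coded 3.1, at 2823 and 130 genes.

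A second description counted the genes whose groups did not overlap in TMM-scaled CPM. All 6 CBD3 hearts lay above all 7 vehicle hearts for 20 genes (0.118%) and below them for 13 genes (0.0764%). These 33 genes (0.194%) had a median level of 4.53 CPM. If the hearts stood in random order, the groups of a gene would separate in either direction with a probability of 0.00117. The median log2 fold change was 0.38 among the 20 and -0.53 among the 13, and 7 of the 33 differed by more than 2-fold. DESeq2 called 4 of the 33, and edgeR and limma voom called 0 of them at an adjusted p of 0.05. With the vehicle heart coded 3.1 left out the number was 217 of 16964 genes, 125 higher and 92 lower. With 1 heart fewer, groups in random order also separate more easily.

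The share of genes whose groups did not overlap was 0.231% under 1 CPM, 0.217% at 1 to 10 CPM and 0.193% at 10 to 100 CPM. Of those with a mean of 10 to 100 CPM, 12 were higher and 2 lower in CBD3 hearts, among 7241 genes tested at that level. At 1 to 10 CPM, 6 were higher and 5 lower, among 5064 genes. Of those under 1 CPM, 2 were higher and 6 lower, among 3467 genes. These differences between levels were not tested. Among the 1237 genes over 100 CPM, 0 genes had groups that did not overlap. Over all levels the split was 24 higher and 15 lower with relative log expression factors, and 18 higher and 4 lower with library size alone. The share of lower genes was thus smaller with library size alone.

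**Figure D3:**
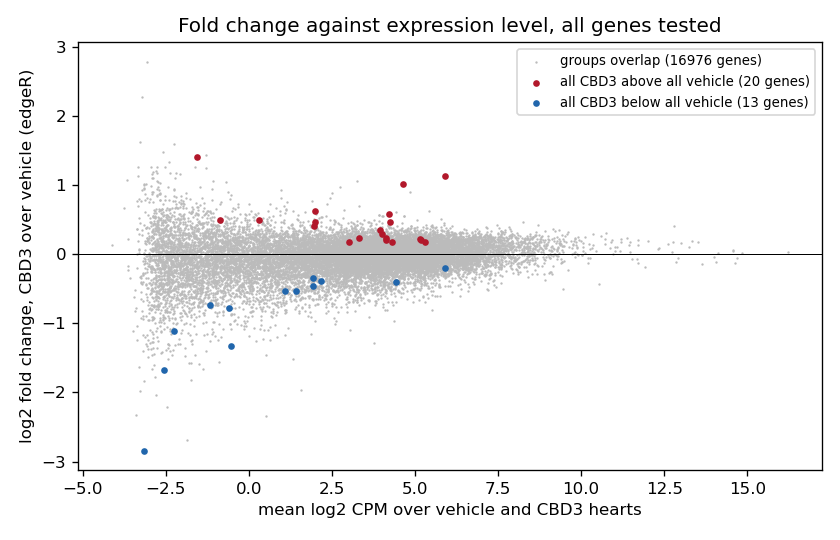
Log2 fold change of CBD3 over vehicle hearts (edgeR) against mean log2 CPM over the 13 hearts, 1 point per gene tested. The 20 genes with all CBD3 hearts above all vehicle hearts (red) and the 13 with all below (blue) are marked, and the spread of fold changes narrows from low to high expression.

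The precision of the log2 fold changes differed by expression level, mainly at low levels. Their median standard error was 0.33 under 1 CPM, 0.17 at 1 to 10 CPM and 0.12 at 10 to 100 CPM, and no smaller above. For genes over 100 CPM the median absolute log2 fold change was 0.12 and the median standard error also 0.12. The 95% interval lay within 1.5-fold either way for 89.8% of them and within 2-fold for 99.3%. For genes of 10 to 100 CPM these shares were 84.9% and 97.0%, and for genes of 1 to 10 CPM 60.1% and 89.04%. Under 1 CPM only 8.22% of genes had an interval within 1.5-fold, so that differences of that size were mostly not resolved there. These intervals are per gene and not adjusted for the number of genes.

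The 10 most abundant genes, at 13303 to 77799 CPM, all had overlapping groups. Of these, 5 had a positive and 5 a negative log2 fold change, between -0.14 and 0.06, and 0 of the 10 had an unadjusted p under 0.05. The lowest edgeR adjusted p among them was 0.710. The interval of every one lay between -0.67 and 0.70 on the log2 scale.

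The median log2 fold change moved with expression level. It was -0.08 for genes under 1 CPM, -0.05 for 1 to 10 CPM, -0.00013 for 10 to 100 CPM and 0.06 for genes over 100 CPM, where the median of all genes was -0.02. With relative log expression factors the medians under 1 and over 100 CPM were -0.07 and 0.08, and with library size alone -0.13 and 0.03. Within the codes ending in 1 the median over 100 CPM was 0.12, and within those ending in 2 it was 0.0096. Without the vehicle hearts coded 1.1 and 2.1 it was 0.04.

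Library totals moved with the group inside each set of codes. Vehicle libraries held 44321480 to 80451013 counts and CBD3 libraries 56992503 to 89240727 counts, a difference that was not resolved over all 13 hearts (exact two-sided permutation p = 0.116, adjusted p = 0.348 over 3 library measures). Among the codes ending in 1, the 4 vehicle libraries held at most 80451013 counts and the 3 CBD3 libraries at least 81599002 (exact permutation p = 0.0571). Among those ending in 2, the 3 vehicle libraries held at most 51793929 and the 3 CBD3 libraries at least 56992503 counts (exact permutation p = 0.1, the smallest this design allows). The part of depth in the differences above was not tested. The share of counts in the 10 most abundant genes of a library was 28.1% ± 2.93 in vehicle (SD, n = 7) and 27.6% ± 1.56 in CBD3 hearts (n = 6; exact two-sided permutation p = 0.738, adjusted p = 0.738). The difference had opposite signs in the sets, with 27.0% ± 2.48 in vehicle and 28.8% ± 0.188 in CBD3 libraries for codes ending in 1 (SD, n = 4 and 3; exact permutation p = 0.257) and 29.6% ± 3.23 against 26.5% ± 1.45 for those ending in 2 (SD, n = 3 each; exact permutation p = 0.2). Between 19674 and 20375 genes had a count in a vehicle library and between 19932 and 20341 in a CBD3 library (exact two-sided permutation p = 0.353, adjusted p = 0.530).

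**Figure D4:**
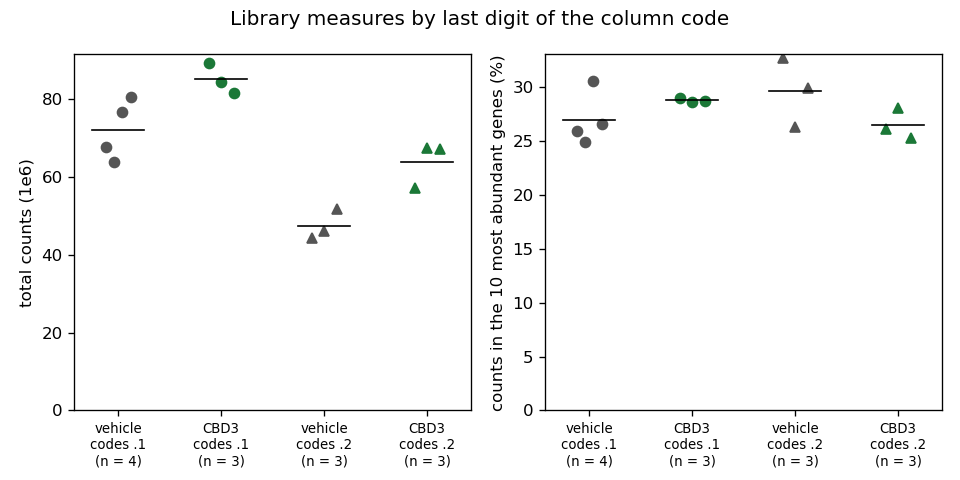
Total counts per library (left) and percent of counts in the 10 most abundant genes (right) for vehicle (grey) and CBD3 (green) libraries, by last digit of the column code (lines, means). Within each digit the CBD3 libraries held more counts than every vehicle library, and the shares of the 10 most abundant genes overlapped over both digits.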

How the data were processed

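Per the labels' protocols, flash-frozen hearts gave total RNA by phenol extraction (RNA integrity number at least 7), and libraries were stranded and enriched for messenger RNA. The authors deposited 1 table of raw counts, with Ensembl IDs as rows. Per the submitters' processing notes, the tools included featureCounts and edgeR and the build was mRatBN7.2. Not given in the sources used here are the aligner, the annotation release and the way reads were assigned. The labels give 4 of the vehicle columns only to the group, since each of their codes stands in the labels of a pair of samples. The labels call the samples biological replicates, and p-values treat the offspring as independent, which littermates would not be.

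Counts of all 18 samples were fitted by group with edgeR 4.0.16 in R 4.3.3 (filterByExpr with a minimum count of 10 and a minimum total of 15, TMM factors, quasi-likelihood F test, Benjamini-Hochberg adjustment over 17009 genes, threshold 0.05). Standard errors come from the F statistic. Log2 CPM used a prior count of 2. DESeq2 1.42.0, with its filter tuned to 0.05, and limma 3.58.1 with voom were alternatives. The pipeline was tested on simulated data. No 2 libraries of the vehicle group or of the CBD3 group were alike within sampling noise (36 pairs within these groups, lowest chi-square per degree of freedom 36.5). The rule for named genes asked for symbols, and its fallback without them, the 2 IDs per direction with the smallest p, was used. The samples compared, the lists and the rules were chosen with earlier results of these data known. DESeq2 with each heart left out, its filter setting and the interaction with the code digit were added after seeing the data.

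In 2555 low genes (mean count between 2 and 10), table entries of 2 numbered 0.56 times the average number of entries of 1 and of 3. The last digit of the column code left 1 of 17009 genes at an unadjusted p under 0.05 (edgeR, group as covariate, added after seeing the data). About 850 would be expected at this threshold if no gene differed by the digit. No label says whether the deposited counts had been adjusted. The tests took them as raw, and p-values could be too small or too large if they were not.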

Additional observations from a re-analysis of the deposited data

How the results depend on the processing

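The 4 IDs kept their direction under all 27 alternatives, which their choice favours. They were chosen for small p-values on all samples and for a sign kept with each heart left out. Of the 27 alternatives, 13 leave out 1 heart each, so the kept direction is not separate evidence for a difference. The number of genes at an adjusted p of 0.05 was 0 in every edgeR and limma voom fit. It was 8 with DESeq2 on the genes tested with edgeR and 19 with DESeq2 on all genes with a count, where ENSRNOG00000066176 was called too. With the DESeq2 filter at its default of 0.1 the 8 became 5. The number at an unadjusted p under 0.05, 1518 with edgeR, was 2249 within code digit 1, 586 within code digit 2 and 613 when the vehicle hearts coded 1.1 and 2.1 were both left out, with 929 to 2823 when single hearts were. If no gene differed, about 850 of 17009 genes would be expected. The 586 (of 16659 genes) and the 613 (of 16861 genes) lay below that number. Replicate numbers are shared by both groups for only 2 assignable pairs. A replicate block by these numbers gave 1953 genes at an unadjusted p under 0.05, and a replicate block by column code 611. Over the 6 codes shared by both groups, the deviations of same-coded samples from their group means correlated at -0.377 to 0.0133, so the codes were not taken as pairs. The number of genes whose groups did not overlap, 33, was 1316 within digit 1 and 1436 within digit 2. It was 70 without the vehicle hearts coded 1.1 and 2.1, and 40 to 217 with single hearts left out. Fewer samples make separation easier in all of these settings, so these counts cannot be set against the 33 directly. With hearts in random order, a gene's groups would separate with a probability of 0.0571 within digit 1 (17640 genes). Within digit 2 the probability would be 0.1 (16659 genes). The planned medians of gene lists were not run, since no ID was paired with a symbol. Unless stated, the cause of a change was not tested.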

Other observations

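None of the 14 sets of vehicle or CBD3 values examined for a sample far from the others (the 4 IDs and 3 library measures in each group) held one by the Dixon criterion at the 95% level, where chance would give about 1 in 20. The 4 IDs were chosen for small p-values and a sign kept with each heart left out. That choice favours values without a far sample, so their sets say little about the hearts.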
